A study of Mus musculus with 10 samples.

Results

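Chemokines and chemokine receptors are described here as the protein-coding genes of the deposited count table whose mouse symbol is Ccl, Cxcl, Ccr or Cxcr followed by a number. There were 51 such genes among the 57010 in the table, comprising 23 CC ligands, 12 CXC ligands, 10 CC receptors and 6 CXC receptors. Chemokines are small secreted proteins that bind G protein-coupled receptors on leukocytes and other cells and guide their migration along gradients. The ligands are named after the spacing of their first conserved cysteines, with the CC ligands (Ccl genes) binding mainly CC receptors (Ccr genes) and the CXC ligands (Cxcl genes) binding mainly CXC receptors (Cxcr genes). Some are made steadily by stromal cells and organise resident and recirculating cells, and others are induced in epithelium, stroma and macrophages by NF-κB or interferon signalling and draw neutrophils, monocytes or T cells into inflamed tissue and tumours.

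RNA came from whole mammary tumours of untreated mice with the MMTV-PyMT transgene, in which a mammary tumour virus promoter drives polyoma middle T antigen in mammary epithelium. The KO tumours were RHBDL4 -/- (5 libraries), lacking a rhomboid protease of the endoplasmic reticulum encoded by Rhbdd1, and the WT tumours were RHBDL4 +/+ (5 libraries). All carry the transgene and all were collected 5 weeks after tumour onset, and the labels give no age, strain background or animal number. Library names begin with the same number in KO replicates 3 and 4, in WT replicates 1 and 2 and in WT replicates 3 and 4, so some libraries may come from 1 animal. Each library has its own batch label, so batch and genotype cannot be told apart. Nothing in the labels says that the libraries of a genotype come from separate animals, and the p-values therefore cover only the spread among the sequenced libraries, which may be technical in part.

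Libraries held 25.7 to 43.3 M counts. Levels are counts per M counts after TMM scaling of the library sizes (CPM), on 1 scale set over all 10 libraries. The TMM factor was 0.588 in WT replicate 5 and 1.01 to 1.10 in the others. Rhbdd1 stood at 13.2 to 22.3 CPM in KO and 24.8 to 45.3 CPM in WT libraries, with every KO library below every WT library. WT replicate 5 lacked most of the epithelial signal: the summed level of 10 luminal markers (among them Epcam, Krt8 and Krt18) was 4493 to 7659 CPM in the KO libraries and 4689 to 5852 CPM in WT replicates 1 to 4, against 131 CPM in WT replicate 5. Skeletal muscle, adipocyte and blood endothelial markers were at their highest in it, at 142020.0, 30836 and 1168 CPM in sum. WT replicate 1 stood apart in another way, with 10 fibroblast markers summing to 3339 to 6972 CPM in KO libraries, 171 CPM in WT replicate 1 and 1452 to 12261 CPM in the other WT libraries. KO was therefore compared with WT both with all 10 libraries and without WT replicate 5. For some genes the text gives the fold change of 1 fit only, or none. In whole tissue, fewer cells of a type and less RNA per cell cannot be told apart.

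**Figure D1:**
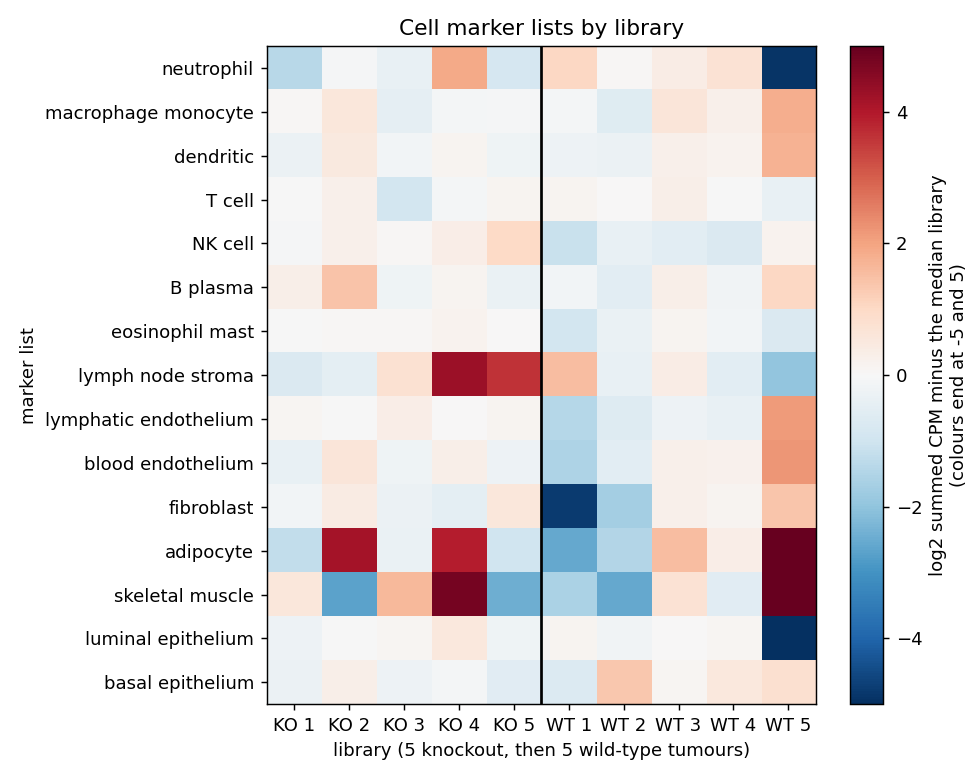
Summed TMM-scaled CPM of each cell marker list (rows) in the 5 KO and 5 WT libraries (columns), as log2 difference from the row's median library, with colours capped at a difference of 5 either way. WT replicate 5 is low in luminal markers and in the neutrophil list, whose sum is mostly Ltf (28.2 CPM there), and high in adipocyte and muscle markers, and WT replicate 1 is low in fibroblast markers (171 CPM in sum).

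Of the 51 genes, 28 had a mean of at least 1 CPM over the 10 libraries, 24 of them ligands and 4 of them receptors. The number was 26 without WT replicate 5, since Ccl24 and Cxcl13 reached 1 CPM only through that library. Another 20 genes had counts but a mean under 1 CPM. Ccl21b, Ccl26 and Ccl27b had 0 counts in every library, which over all libraries together allows up to 0.00905 CPM of unscaled counts each. This limit covers counting error only, and Ccl21b and Ccl27b have near-identical copies, so their reads could have been dropped or assigned elsewhere when reads were counted. Per kb of exon, the highest mean levels over all 10 libraries were those of Ccl6 (33.3 CPM per kb), Cxcl14 (29.8), Cxcr4 (29.1) and Ccl8 (28.8). When WT replicate 5 was left out the order was Cxcr4 (31.3 CPM per kb), Cxcl14 (28.3), Ccl8 (17.6), Ccl6 (14.5) and Cxcl16 (11.9). Summed over the 35 ligands, KO libraries held 171 to 458 CPM, WT replicates 1 to 4 held 156 to 300 CPM and WT replicate 5 held 1093 CPM. The 16 receptors summed to 46.8 to 117 CPM in KO libraries, to 87.6 to 106 CPM in WT replicates 1 to 4 and to 74.6 CPM in WT replicate 5.

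**Figure D2:**
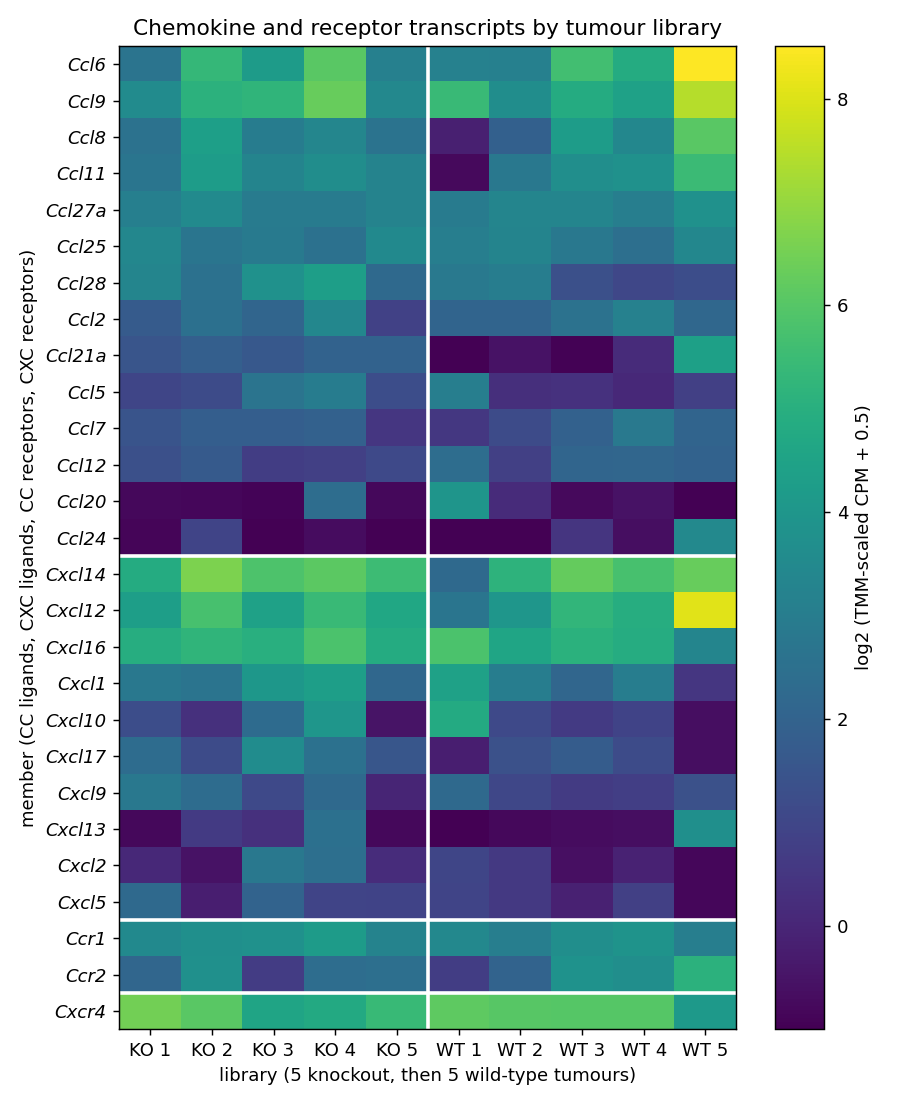
Level of genes with a mean of at least 1 CPM (rows, 27 of the 28 shown, by family and then by mean) in the 5 KO and 5 WT libraries (columns), as log2 of TMM-scaled CPM plus 0.5. Ccl6, Cxcl12 and Ccl9 are brightest in WT replicate 5, and Ccl8, Ccl11 and Cxcl14 are darkest in WT replicate 1.

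These genes varied widely between tumours of 1 genotype. On log2(CPM + 0.5) the median within-group SD of the 25 tested genes with at least 1 CPM was 1.01 with all 10 libraries, against 0.45 for the 10895 tested genes in the same range of mean CPM. It was 0.92 without WT replicate 5, against 0.31 for 10900 genes. Ccl27a, a skin-type chemokine that binds Ccr10, was the steadiest with an SD of 0.29 over all 10 libraries, and Cxcl10 the most variable with an SD of 1.91. WT replicate 5 gave the highest value of 10 of the 28 genes (9 without the TMM factors), of which Cxcl13 and Ccl24 are among the 28 only through that library, and WT replicate 1 the highest value of 6 (Cxcl16, Cxcl1, Cxcl10, Ccl5, Ccl12 and Ccl20). The same libraries also gave many of the lowest values, WT replicate 5 of 8 genes and WT replicate 1 of 6, leaving aside Ccl24, whose lowest value of 0 several libraries shared. The shares over all genes are not given here.

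KO was compared with WT by edgeR's quasi-likelihood test over all genes, and genes whose p, adjusted by Benjamini-Hochberg, was under 0.05 count as called. The low-count filter kept 32 of the 51 genes with all 10 libraries and 34 without WT replicate 5; of the genes above 1 CPM, Ccl20, Cxcl13 and Ccl24 did not pass it. None of the 32 was called with all 10 libraries, where 0 of 18577 genes were called (0.0%), and neither DESeq2 (0.269% of genes) nor limma-voom with quality weights (0.0915%) called any of them. At an unadjusted p under 0.05 there were 3 (Ccl28 and Cxcl17 higher, Ccl12 lower in KO), beside 7.0% of all genes (2.56% higher and 4.44% lower). Signs were even, with 16 higher and 16 lower in KO (43.8% of all genes were higher), and the median log2 fold change was -0.06, the same as over all genes. Of the 32, 0 had groups that did not overlap, beside 2.0% of all genes. Without WT replicate 5, edgeR called none of the 34 (0.0105% of 19016 genes were called), and 3 had an unadjusted p under 0.05 (Ccl21a and Cxcl17 higher, Ccl12 lower), beside 11.6% of genes (5.74% higher and 5.85% lower). Here 24 were higher and 10 lower in KO (53.2% of all genes were higher), with a median log2 fold change of 0.23 against 0.03 over all genes. That balance rested in part on single libraries and on the tool, with 18 higher and 15 lower when KO replicate 4 was left out as well, and 16 higher and 18 lower in limma-voom with quality weights. Of the 34, 1 had groups that did not overlap, Ccl21a, beside 5.64% of all genes. DESeq2 (2.28% of genes called) and limma-voom with quality weights (0.752%) each called Ccl21a alone of these genes. The standard errors were large, with a median of 0.64 log2 units over the 32 genes against 0.33 over all genes.

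**Figure D3:**
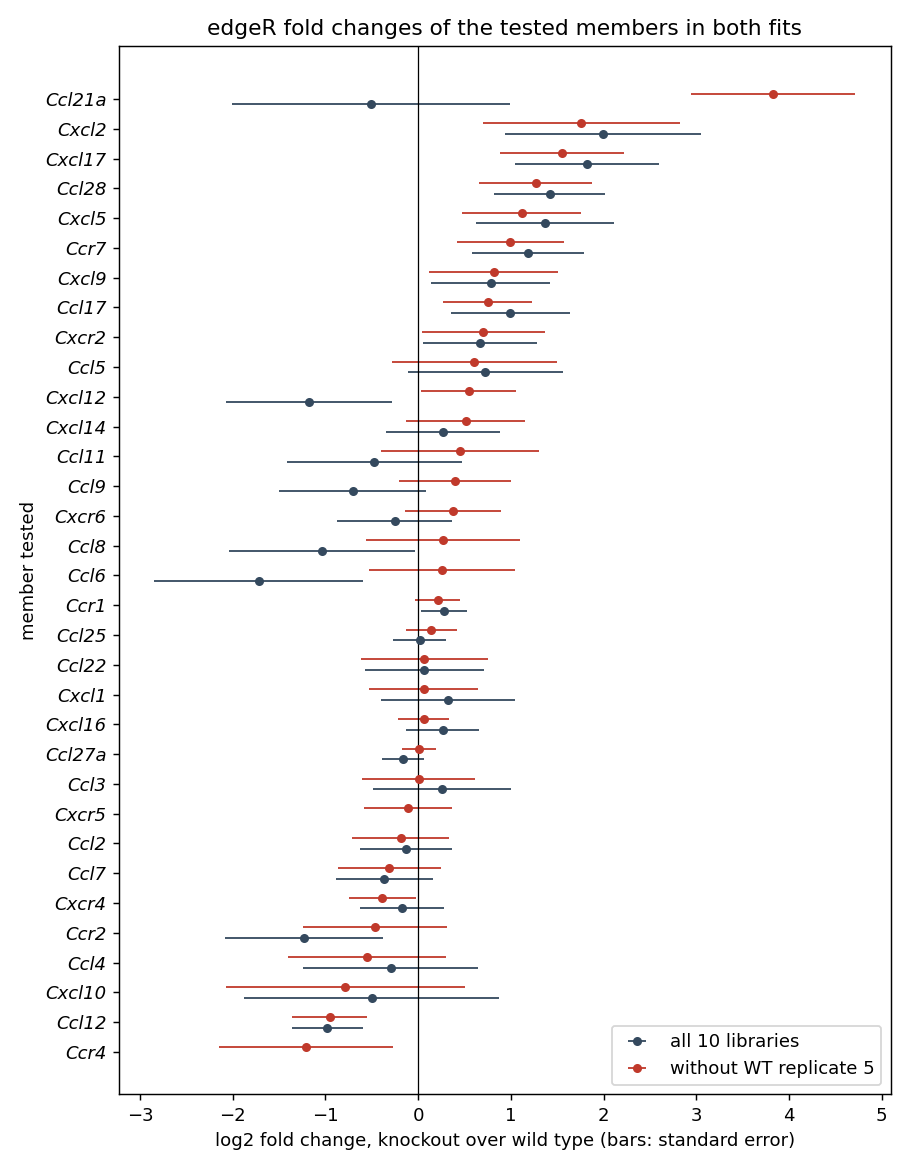
Log2 fold change of KO over WT (x axis, bars show the standard error) for the tested genes shown (y axis) in edgeR, with all 10 libraries (dark blue) and without WT replicate 5 (red). The Ccl21a value is 3.83 without that library and -0.51 with it, and Ccl6, Cxcl12, Ccl8, Ccl9, Ccl11, Cxcr6 and, near 0, Ccl27a also differ in sign.

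Ccl21a encodes the lymphoid chemokine made by lymphatic endothelium and lymph node stroma, which leads dendritic cells and naive T cells bearing Ccr7 into lymphatics and nodes. The Ccl21a level was 2.37, 3.22, 2.57, 3.46 and 3.43 CPM in KO replicates 1 to 5, against 0, 0.194, 0.0214, 0.637 and 20.7 CPM in WT replicates 1 to 5. The KO libraries lay close together and above WT replicates 1 to 4, and WT replicate 5 lay above all of them. The counts behind WT replicates 1 to 4 were 0, 8, 1 and 23, and a count of 0 in WT replicate 1 allows up to 0.0904 CPM. Without WT replicate 5 the mean was 3.01 ± 0.51 CPM in KO (SD, n = 5) and 0.21 ± 0.30 CPM in WT (SD, n = 4), a log2 fold change of 3.83 ± 0.88 (SE), not called by edgeR (adjusted p = 0.279). Over the alternatives the adjusted p ran from 0.000444 (DESeq2) to 0.681 (counts summed per leading number of the library name), with limma-voom with quality weights at 0.0475. With all 10 libraries the log2 fold change was -0.51 ± 1.5 (SE) (edgeR adjusted p = 0.923). Near-identical Ccl21 copies lie on the same chromosome, and the labels do not say how reads shared between them were counted, so the level is uncertain.

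Lymphatic endothelial markers are given beside Ccl21a, with no test of whether they vary together. The 7 markers (Prox1, Lyve1, Flt4, Reln, Mmrn1, Pdpn and Nr2f2, several of which other cells also express) summed to 61.1 to 78.2 CPM in KO libraries, 23.2 to 52.3 CPM in WT replicates 1 to 4 and 274 CPM in WT replicate 5. Of the 7, all were higher in KO without WT replicate 5 and 5 had an unadjusted p under 0.05 in that direction, beside 5.74% of all genes, and none was called. With all 10 libraries 3 were higher and 4 lower in KO, 0 had an unadjusted p under 0.05, and none was called. Mmrn1 (chosen after its values were seen), a secreted glycoprotein of lymphatic endothelium and platelets, stood at 0.851, 1.64, 1.34, 1.62 and 1.19 CPM in KO replicates 1 to 5 and at 0.0301, 0.0485, 0.0214, 0.166 and 10.2 CPM in WT replicates 1 to 5, the same order of groups as Ccl21a. Prox1, the transcription factor of lymphatic identity, which other cells also express, had another order, at 10.5, 5.51, 3.84, 2.56 and 8.32 CPM in KO replicates 1 to 5 and at 0.663, 7.49, 6.32, 7.56 and 3.04 CPM in WT replicates 1 to 5. WT replicates 2 to 4 were above KO replicates 2 to 4 in Prox1, and WT replicate 5 was not its highest library. For Flt4, Lyve1, Pdpn, Nr2f2 and Reln the KO libraries overlapped WT replicates 1 to 4. Of the lymph node markers, Chst4 had 0 CPM in all libraries and Madcam1 and Cr2 were at most 0.217 and 0.16 CPM in KO libraries and 0.0727 and 0.107 CPM in WT libraries; the sum of that list (6.63 to 230 CPM in KO and 2.51 to 33.6 CPM in WT) was carried in KO replicates 4 and 5 by Glycam1, which the mammary epithelium also makes. B and plasma cell markers summed to 2.78 to 10.6 CPM in KO and 2.35 to 7.92 CPM in WT libraries. Adipocyte markers summed to 73.4, 3077, 137, 2574 and 84.8 CPM in KO replicates 1 to 5, against 28.4, 60.9, 496, 214 and 30836 CPM in WT replicates 1 to 5. They were high in KO replicates 2 and 4 and in WT replicate 5. The part of these cells in the Ccl21a difference was not tested. The receptor Ccr7 stood at 0.405 to 1.47 CPM in KO and 0.0660 to 0.748 CPM in WT libraries, and Ccl19, the other ligand of Ccr7, had at most 8 counts in any library.

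**Figure D4:**
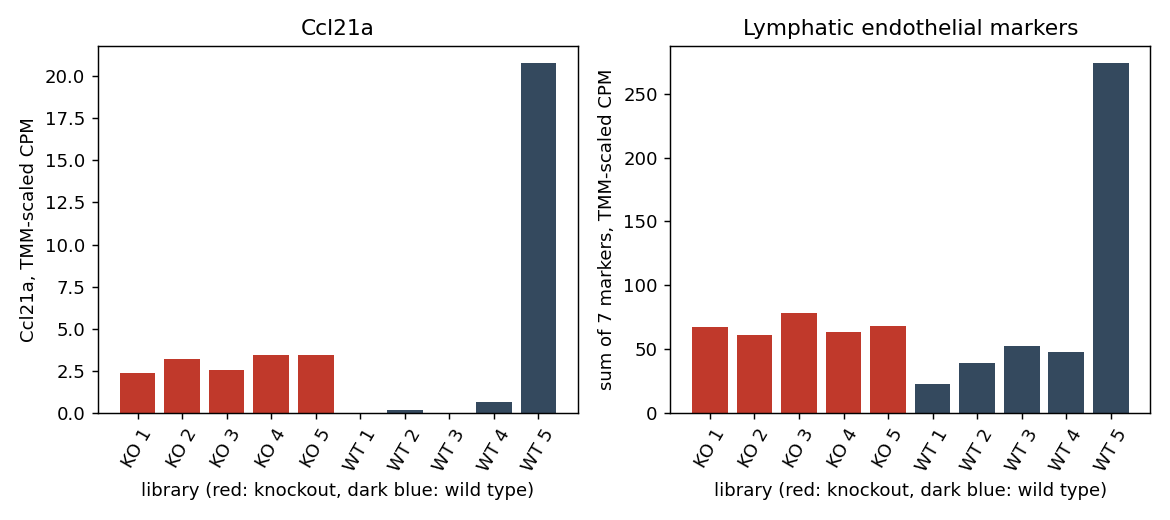
Ccl21a (left) and the summed level of 7 lymphatic endothelial markers (right) in each library, in TMM-scaled CPM, KO in red and WT in dark blue. The KO libraries lie at 2.37 to 3.46 CPM of Ccl21a, above WT replicates 1 to 4 (0 to 0.637 CPM) and below WT replicate 5 (20.7 CPM).

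Cxcl13, the B cell chemokine of lymphoid follicles, which binds Cxcr5, did not pass the filter. For Cxcl13, KO replicates 1 to 5 gave 0.0798, 1.02, 0.761, 5.14 and 0.0810 CPM and WT replicates 1 to 5 gave 0, 0.0727, 0.129, 0.138 and 12.9 CPM. Its high libraries were KO replicate 4 and WT replicate 5, while WT replicates 1 to 4 had at most 6 counts. Cxcr5 stood at 0.135 to 0.399 CPM in KO and 0.120 to 0.526 CPM in WT libraries.

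Several inducible ligands had their high values in the same few libraries of both genotypes. Cxcl10, an interferon-induced ligand of Cxcr3 that recruits activated T and NK cells, had the largest within-group SD over all 10 libraries of the tested genes above 1 CPM. Cxcl10 stood at 1.86, 0.743, 4.46, 15.4 and 0.216 CPM in KO replicates 1 to 5, and at 27.9, 1.62, 1.03, 1.38 and 0.132 CPM in WT replicates 1 to 5. KO replicate 4 and WT replicate 1 were high and every other library lay under 5 CPM, so the groups overlapped. Its log2 fold change was -0.50 ± 1.37 (SE) with all 10 libraries (edgeR adjusted p = 0.915) and -0.79 ± 1.29 (SE) without WT replicate 5 (adjusted p = 0.839), and it turned to 2.09 and 1.77 without WT replicate 1. Ccl20, the ligand of Ccr6 made by inflamed epithelium, had the same high libraries. The Ccl20 level was 0.0798, 0.0620, 0.0362, 4.78 and 0.0810 CPM in KO replicates 1 to 5, against 15.1, 0.630, 0.0858, 0.194 and 0 CPM in WT replicates 1 to 5. Its receptor was nearly absent, with 3 Ccr6 counts in all libraries together. Ccl5, a ligand of Ccr1 and Ccr3 made by T cells, macrophages and epithelium, was high in KO replicates 3 and 4 and in WT replicate 1. For Ccl5, KO replicates 1 to 5 gave 1.49, 1.73, 5.87, 7.49 and 1.86 CPM and WT replicates 1 to 5 gave 7.83, 0.703, 0.772, 0.581 and 1.25 CPM. Cxcl9, another interferon-induced Cxcr3 ligand, was high in KO replicates 1, 2 and 4 and in WT replicate 1. Cxcl9 stood at 6.41, 4.65, 1.67, 4.21 and 0.486 CPM in KO replicates 1 to 5, and at 4.28, 1.53, 1.07, 1.19 and 2.05 CPM in WT replicates 1 to 5. It was highest in KO replicate 1, and its log2 fold change was 0.81 ± 0.69 (SE) without WT replicate 5 (edgeR adjusted p = 0.675). Cxcr3 itself stood at 0.106 to 0.465 CPM in KO and 0.0903 to 2.44 CPM in WT libraries.

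Ligands of Cxcr2, which recruit neutrophils, did not all have the same high libraries. Cxcl1 was high in KO replicates 3 and 4 and in WT replicate 1. The Cxcl1 level was 6.41, 5.76, 15.9, 19.6 and 3.97 CPM in KO replicates 1 to 5, against 21.02, 7.64, 3.88, 7.73 and 0.924 CPM in WT replicates 1 to 5. The groups overlapped. Cxcl2, its close relative, was high in KO replicates 3 and 4 only. For Cxcl2, KO replicates 1 to 5 gave 0.559, 0.186, 6.52, 4.99 and 0.648 CPM and WT replicates 1 to 5 gave 1.51, 0.994, 0.150, 0.443 and 0.0660 CPM. The other KO libraries lay within the WT range, and the log2 fold change was 1.76 ± 1.06 (SE) without WT replicate 5 (edgeR adjusted p = 0.547). KO replicates 3 and 4 share the leading number of their names. Cxcl5, an epithelial ligand of the same receptor, had a log2 fold change of 1.37 ± 0.75 (SE) with all 10 libraries (edgeR adjusted p = 0.669) and 1.12 ± 0.64 (SE) without WT replicate 5 (adjusted p = 0.528). Cxcl5 stood at 4.20, 0.372, 3.55, 1.44 and 1.38 CPM in KO replicates 1 to 5, and at 1.45, 0.994, 0.407, 1.25 and 0.0660 CPM in WT replicates 1 to 5. KO replicates 1 and 3 lay above every WT library, and KO replicate 2 below WT replicates 1 to 4. Cxcr2 stood at 0.756 to 2.20 CPM in KO and 0.107 to 1.66 CPM in WT libraries, Cxcl3 at most at 0.58 CPM in KO and 0.17 CPM in WT libraries, and Cxcr1 had at most 2 counts in any library. The 12 neutrophil markers summed to 454 to 4460 CPM in KO, highest in replicate 4, and to 1235 to 2434 CPM in WT replicates 1 to 4, against 39.3 CPM in WT replicate 5. In all libraries but WT replicate 1 most of that sum was Ltf, which the mammary epithelium also makes, at 401 to 4127 CPM in KO libraries, 1004 to 1917 CPM in WT replicates 1 to 4 and 28.2 CPM in WT replicate 5. S100a8 gave 1239.9 CPM in WT replicate 1, the highest library of S100a8, Camp and Cd177. S100a9, Retnlg, Ngp and Mmp8 were instead highest in KO replicate 4, at 23.999, 7.22, 3.82 and 2.41 CPM. In WT replicate 1 these genes stood at 16.3, 0.602, 0.151 and 0.994 CPM. Ly6g, Elane and Mpo were at most 0.29 CPM in KO and 0.264 CPM in WT libraries. Csf3r, the neutrophil growth factor receptor, stood at 3.40 to 5.53 CPM in KO and 3.43 to 4.42 CPM in WT libraries, highest among WT in replicate 5. The part of neutrophils in these levels was not tested.

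**Figure D5:**
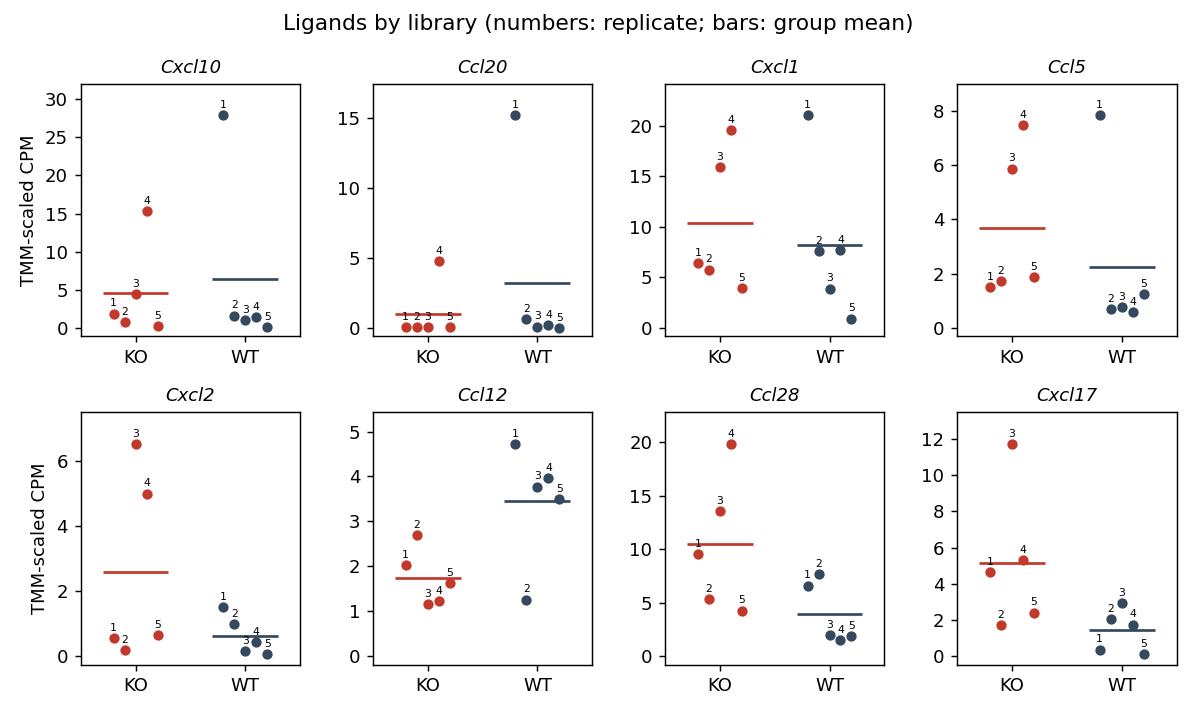
Level in TMM-scaled CPM (y axis) of 8 ligands in each KO (red) and WT (dark blue) library, with replicate numbers beside the points and bars at the group means. KO replicate 4 and WT replicate 1 carry the high values of Cxcl10 (15.4 CPM in KO replicate 4 and 27.9 CPM in WT replicate 1) and Ccl20 (4.78 CPM in KO replicate 4 and 15.1 CPM in WT replicate 1). Ccl12 is below 3 CPM in all KO libraries and in WT replicate 2 (1.26 CPM).

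The promoters of Cxcl1, Cxcl2, Cxcl10 and Ccl20 are shown because these inducible ligands had high values in KO replicate 4 or WT replicate 1, and that of Ccl21a because its groups did not overlap without WT replicate 5. Each is the 250 bases before the RefSeq start (GRCm38.p6, 5′ to 3′ on the gene's strand), with matches to the NF-κB consensus (the kappaB motif, searched on both strands) and, in Cxcl10, to the interferon-response pattern (GAAA, any 2 bases, GAAA, on both strands) in capitals. Overlapping matches on both strands of Cxcl1 and Cxcl2 form 1 run.
Cxcl1 (chr5:90890995-90891244, plus strand): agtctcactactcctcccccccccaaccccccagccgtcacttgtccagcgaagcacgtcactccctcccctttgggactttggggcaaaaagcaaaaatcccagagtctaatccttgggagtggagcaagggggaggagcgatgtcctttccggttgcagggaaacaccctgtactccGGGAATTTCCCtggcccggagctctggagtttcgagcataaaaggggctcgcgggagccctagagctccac
Cxcl2 (chr5:90903649-90903898, plus strand): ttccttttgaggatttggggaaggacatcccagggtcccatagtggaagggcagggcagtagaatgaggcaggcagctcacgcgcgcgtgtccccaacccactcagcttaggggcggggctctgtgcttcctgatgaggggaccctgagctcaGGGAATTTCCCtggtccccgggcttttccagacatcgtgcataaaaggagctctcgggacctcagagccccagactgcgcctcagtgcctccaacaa
Cxcl10 (chr5:92348890-92349139, minus strand): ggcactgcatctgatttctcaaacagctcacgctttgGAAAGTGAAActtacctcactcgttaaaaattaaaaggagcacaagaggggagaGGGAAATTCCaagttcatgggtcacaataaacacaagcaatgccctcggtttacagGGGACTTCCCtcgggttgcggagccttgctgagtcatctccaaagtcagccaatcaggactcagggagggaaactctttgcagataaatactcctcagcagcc
Ccl20 (chr1:83116516-83116765, plus strand): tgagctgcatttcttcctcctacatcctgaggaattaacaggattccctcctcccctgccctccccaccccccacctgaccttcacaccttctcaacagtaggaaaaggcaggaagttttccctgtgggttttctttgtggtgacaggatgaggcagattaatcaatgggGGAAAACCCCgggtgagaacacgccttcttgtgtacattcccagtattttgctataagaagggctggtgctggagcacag
Ccl21a (chr4:42773992-42774241, minus strand): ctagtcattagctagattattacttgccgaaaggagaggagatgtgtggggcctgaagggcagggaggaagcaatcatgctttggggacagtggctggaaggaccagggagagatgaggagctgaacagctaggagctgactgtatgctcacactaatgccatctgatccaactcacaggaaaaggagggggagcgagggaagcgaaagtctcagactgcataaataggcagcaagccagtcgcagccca
The kappaB motif was in 8 of the 44 promoter windows found for 37 of the 51 genes, 18.2%, and in 3.9% of all 32851 windows of this length. The windows with it were those of Cxcl1, Cxcl2, Cxcl3, Cxcl10, Ccl20, Ccl9, Ccr3 and 1 of the starts of Ccr6. The interferon-response pattern was in 3 of the 44 windows (Cxcl10, Cxcl14 and Ccl19), 6.82%, and in 2.98% of all windows. The Ccl21a window held neither. Other ligands that were highest of their group in KO replicate 4 or WT replicate 1 are not shown. Among them, Ccl12, Ccl28, Ccl6, Cxcl13, Cxcl9, Ccl3 and Ccl22 held neither in their windows, and Ccl9 held the kappaB motif. A match describes letters and not a bound site, and the table's build differs from the GRCm39 build of the counts.

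Several inducers of these ligands were at their highest in WT replicate 1. Of the 19 genes listed, Nfkb2, Irf1 and Nfkbia are given here and were chosen after their values were seen. Nfkb2, an NF-κB subunit, stood at 26.5 to 34.3 CPM in KO libraries, and at 94.8 CPM in WT replicate 1 against 23.5 to 27.7 CPM in the other WT libraries. Irf1, an interferon-induced transcription factor, stood at 50.9 to 60.1 CPM in KO libraries, and at 103 CPM in WT replicate 1 against 32.2 to 48.3 CPM in the other WT libraries. KO replicate 4 lay within the range of the other KO libraries in Nfkb2 (27.4 CPM) and Irf1 (52.0 CPM), and had the highest KO level of Nfkbia, the NF-κB inhibitor that NF-κB induces, at 184 CPM. Il17a had 0 counts in every library, which allows up to 0.0643 to 0.198 CPM depending on the library, and Ifng was above 0 CPM only in KO replicate 1 (0.106 CPM). In KO against WT, 16 inducers were tested and none was called; 8 were higher and 8 lower with all 10 libraries, and 7 higher and 9 lower without WT replicate 5.

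Monocyte-attracting CC ligands and their receptors overlapped between the groups. Ccl12, a mouse ligand of Ccr2, had the smallest unadjusted p of the lower members in both fits. The Ccl12 level was 2.02, 2.69, 1.16, 1.23 and 1.62 CPM in KO replicates 1 to 5, against 4.73, 1.26, 3.77, 3.96 and 3.50 CPM in WT replicates 1 to 5. All KO libraries lay below all WT libraries except WT replicate 2, which lay within the KO range. Its mean was 1.75 ± 0.63 CPM in KO and 3.44 ± 1.30 CPM in WT (SD, n = 5 each). The log2 fold change of -0.98 ± 0.38 (SE) was not called (edgeR adjusted p = 0.669), nor without WT replicate 5 (-0.95 ± 0.40 (SE), adjusted p = 0.412). Ccl2, the main Ccr2 ligand, stood at 1.30 to 9.98 CPM in KO and 3.64 to 8.45 CPM in WT libraries, and Ccl7, a further one, at 0.918 to 3.40 CPM in KO and 0.964 to 6.67 CPM in WT libraries; the Ccl7 log2 fold change of -0.31 ± 0.56 (SE) without WT replicate 5 (edgeR adjusted p = 0.855) was 0.34 without WT replicate 4 as well. Ccr2, the receptor of inflammatory monocytes, varied by over 10-fold within each group. For Ccr2, KO replicates 1 to 5 gave 3.88, 13.3, 1.12, 4.81 and 5.00 CPM and WT replicates 1 to 5 gave 1.14, 3.61, 13.9, 12.6 and 34.5 CPM. Its log2 fold change was -1.23 ± 0.85 (SE) with all 10 libraries (edgeR adjusted p = 0.692) and -0.46 ± 0.78 (SE) without WT replicate 5 (adjusted p = 0.845).

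Ccr1 is a receptor of monocytes and neutrophils. Ccr1 stood at 10.99, 12.9, 13.5, 17.95 and 8.97 CPM in KO replicates 1 to 5, and at 10.2, 7.86, 12.5, 14.4 and 7.92 CPM in WT replicates 1 to 5. Its groups overlapped, with a log2 fold change of 0.21 ± 0.24 (SE) without WT replicate 5 (edgeR adjusted p = 0.761). Ccl3 and Ccl4, inflammatory CC ligands made by macrophages and T cells, were low, at 0.108 to 1.01 CPM in KO and 0 to 0.843 CPM in WT libraries and at 0.0310 to 0.942 CPM in KO and 0 to 1.11 CPM in WT libraries. The 12 macrophage and monocyte markers summed to 383 to 786 CPM in KO, 347 to 795 CPM in WT replicates 1 to 4 and 1830 CPM in WT replicate 5, and their part in these values was not tested.

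Across the 9 libraries without WT replicate 5, the members most like Ccl12 included Cxcr4 and Ccr2, and those most like Cxcl17 were Ccl28, Cxcl5 and Ccl21a, by Spearman's rho of CPM. For Ccl12 and Cxcr4 Spearman's rho was 0.60 (exact permutation p = 0.0968, 0.814 adjusted over 81 relations) and Pearson's r was 0.52 (p = 0.159, adjusted 0.846), and r was 0.50 without the 2 libraries farthest from the median of Ccl12. For Cxcl17 and Ccl28 rho was 0.58 (exact permutation p = 0.108, adjusted 0.814) and r was 0.61 (p = 0.0928, adjusted 0.683), falling to 0.29 without the 2 farthest libraries. Both genes of each pair given had a log2 fold change of the same sign, so values pooled over KO and WT can include that shared difference. The libraries share their scaling and some share a leading number, and for Ccl21a, whose 9 libraries fall into separate clusters by genotype, no such value is given.

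Ccl6 and Ccl9, myeloid ligands of Ccr1 found in rodents, were highest in WT replicate 5. The Ccl6 level was 5.77, 40.3, 18.1, 67.4 and 8.43 CPM in KO replicates 1 to 5, against 8.64, 8.22, 48.9, 28.7 and 364 CPM in WT replicates 1 to 5. Ccl6 ranged over 10-fold within KO, with replicate 4 highest and replicate 1 lowest, and the KO range covered WT replicates 1 to 4. The log2 fold change was -1.72 ± 1.12 (SE) with all 10 libraries (edgeR adjusted p = 0.684) and 0.26 ± 0.79 (SE) without WT replicate 5 (adjusted p = 0.923), a change of sign. For Ccl9, KO replicates 1 to 5 gave 11.4, 33.6, 36.7, 78.8 and 10.2 CPM and WT replicates 1 to 5 gave 43.2, 12.1, 28.6, 21.2 and 172 CPM. Of these, KO replicate 4 and WT replicate 5 were the highest of their groups.

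Among ligands that stromal cells make, Cxcl12, Ccl11, Ccl8 and Cxcl14 were lowest in WT replicate 1, and all of these but Cxcl14 were highest in WT replicate 5. Cxcl12, made by fibroblasts, endothelium and adipose stroma, holds cells bearing Cxcr4 in place. Cxcl12 stood at 19.5, 52.8, 21.02, 43.03 and 24.8 CPM in KO replicates 1 to 5, and at 5.99, 15.3, 37.8, 30.1 and 272 CPM in WT replicates 1 to 5. WT replicate 5 lay far above all other libraries. WT replicates 3 and 4 lay within the KO range, and WT replicates 1 and 2 lay below it. The log2 fold change was -1.17 ± 0.89 (SE) with all 10 libraries (edgeR adjusted p = 0.712) and 0.55 ± 0.51 (SE) without WT replicate 5 (adjusted p = 0.70), again a change of sign. Ccl11, the eosinophil chemokine eotaxin, had 3 counts in WT replicate 1. The Ccl11 level was 5.99, 18.6, 9.28, 12.03 and 9.16 CPM in KO replicates 1 to 5, against 0.0903, 6.45, 12.6, 13.4 and 43.7 CPM in WT replicates 1 to 5. Ccl8, a ligand of Ccr8 in mouse made by macrophages and skin cells, was lowest and highest in the same WT libraries. For Ccl8, KO replicates 1 to 5 gave 5.48, 20.1, 7.43, 9.77 and 5.59 CPM and WT replicates 1 to 5 gave 0.392, 3.25, 18.7, 10.1 and 66.4 CPM. Its log2 fold change was -1.04 ± 1.00 (SE) with all 10 libraries (edgeR adjusted p = 0.766) and 0.26 ± 0.83 (SE) without WT replicate 5 (adjusted p = 0.924). Cxcl14, a ligand of epithelium and fibroblasts, was low in WT replicate 1, and WT replicate 5 lay within the KO range. Cxcl14 stood at 28.3, 97.6, 58.1, 68.2 and 44.9 CPM in KO replicates 1 to 5, and at 4.31, 34.9, 76.2, 52.6 and 78.6 CPM in WT replicates 1 to 5. The groups overlapped. The 10 fibroblast markers were all higher in KO without WT replicate 5, with a median log2 fold change of 0.41. With all 10 libraries 2 were higher and 8 lower in KO, with a median of -0.68. None was called in either fit, and the part of fibroblasts in these 4 ligands was not tested. Ccl24, a further eosinophil ligand, was at most 1.42 CPM in KO libraries, 10.5 CPM in WT replicate 5 and at most 0.90 CPM in the other WT libraries; its receptor Ccr3 had at most 6 counts in any library.

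Cxcr4, the receptor of Cxcl12 on leukocytes, endothelium and many tumour cells, had the highest level of the receptors per kb of exon. The Cxcr4 level was 88.4, 67.03, 23.2, 26.7 and 42.5 CPM in KO replicates 1 to 5, against 70.4, 65.1, 63.3, 63.2 and 16.9 CPM in WT replicates 1 to 5. WT replicates 1 to 4 lay within 8 CPM of each other, and the KO libraries spread on both sides of them, with KO replicates 3, 4 and 5 lower and KO replicates 1 and 2 within or above. The log2 fold change was -0.39 ± 0.36 (SE) without WT replicate 5 (edgeR adjusted p = 0.70), and with all 10 libraries it was -0.17 ± 0.45 (SE) (adjusted p = 0.911) and became 0.0088 without KO replicate 3. Cxcl16, a membrane-bound ligand that draws T and NKT cells bearing Cxcr6, stood at 28.4 to 55.3 CPM in KO and 9.44 to 55.7 CPM in WT libraries, lowest in WT replicate 5. Cxcr6 stood at 0.189 to 0.960 CPM in KO and 0.236 to 1.52 CPM in WT libraries. T cell markers, 11 in number and at most 5.87 CPM each, summed to 5.44 to 12.9 CPM in KO and 8.25 to 13.1 CPM in WT libraries. The 10 NK cell markers summed to 5.27 to 11.5 CPM in KO, 2.26 to 4.15 CPM in WT replicates 1 to 4 and 6.27 CPM in WT replicate 5. All 6 tested NK markers were higher in KO without WT replicate 5, 3 of them at an unadjusted p under 0.05 in that direction (5.74% of all genes) and none called. With all 10 libraries 5 were tested, 4 higher and 1 lower in KO, with 0 at an unadjusted p under 0.05 and none called.

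Mucosal and epithelial ligands gave the smallest p of the higher members with all 10 libraries. Ccl28, a ligand of Ccr10 and Ccr3 secreted by mammary and other mucosal epithelium that draws antibody-secreting cells, averaged 10.5 ± 6.40 CPM in KO and 3.92 ± 2.96 CPM in WT (SD, n = 5 each). For Ccl28, KO replicates 1 to 5 gave 9.53, 5.33, 13.6, 19.9 and 4.27 CPM and WT replicates 1 to 5 gave 6.60, 7.66, 1.97, 1.52 and 1.85 CPM. KO replicates 1, 3 and 4 lay above every WT library and KO replicates 2 and 5 within the WT range. The log2 fold change was 1.42 ± 0.60 (SE) with all 10 libraries (edgeR unadjusted p = 0.0399, adjusted p = 0.669) and 1.27 ± 0.61 (SE) without WT replicate 5 (unadjusted p = 0.0655, adjusted p = 0.464). Cxcl17, a mucosal ligand that attracts monocytes and dendritic cells, averaged 5.17 ± 3.97 CPM in KO and 1.44 ± 1.17 CPM in WT (SD, n = 5 each). Cxcl17 stood at 4.66, 1.73, 11.7, 5.29 and 2.40 CPM in KO replicates 1 to 5, and at 0.361, 2.04, 2.92, 1.74 and 0.132 CPM in WT replicates 1 to 5. KO replicates 1, 3 and 4 again lay above every WT library. The log2 fold change was 1.82 ± 0.78 (SE) with all 10 libraries (edgeR adjusted p = 0.669) and 1.55 ± 0.67 (SE) without WT replicate 5 (adjusted p = 0.421). Leaving out KO replicate 3 gave 1.27 from the other 9 libraries and 1.01 without WT replicate 5 as well. In limma-voom with quality weights the values were 0.80 with all 10 libraries and 0.81 without WT replicate 5. Ccl25, the gut and thymus ligand of Ccr9, stood at 5.32 to 10.9 CPM in KO and 5.07 to 9.97 CPM in WT libraries and Ccl27a at 7.18 to 11.1 CPM in KO and 7.29 to 13.4 CPM in WT libraries, with ranges that overlapped throughout. Their receptors Ccr9 and Ccr10 had at most 17 counts in any library.

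The remaining members were low. Ccl22 and Ccl17, ligands of Ccr4 from dendritic cells and macrophages, stood at 0.362 to 1.02 CPM in KO and 0.0301 to 1.19 CPM in WT libraries and at 0.373 to 1.56 CPM in KO and 0 to 0.772 CPM in WT libraries, and Ccr4 at 0.0929 to 0.399 CPM in KO and 0.0660 to 2.33 CPM in WT libraries, with its highest value in WT replicate 2. Ccl1 had at most 5 counts and Ccr8 at most 6 counts in any library, and Cxcl15 stood at 0.0620 to 1.16 CPM in KO and 0 to 0.364 CPM in WT libraries.

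Beyond these families, the listed genes of the same system gave no call in either fit. Of 12 tested members among the other chemokines, atypical receptors and relatives, 3 were higher and 9 lower in KO with all 10 libraries, and 9 higher and 3 lower without WT replicate 5 (median log2 fold change -0.35 and 0.49). Rarres2, the chemoattractant chemerin, had the smallest p without WT replicate 5, with a log2 fold change of 1.67 ± 0.73 (SE) (edgeR adjusted p = 0.426). Ackr3 and Cx3cl1 are given for their levels in WT replicate 5 and were chosen after their values were seen. Ackr3, a scavenging receptor of Cxcl12, stood at 14.8 to 30.5 CPM in KO, 14.1 to 22.2 CPM in WT replicates 1 to 4 and 135 CPM in WT replicate 5. Cx3cl1, the membrane-bound chemokine fractalkine, stood at 66.3 to 121 CPM in KO, 86.1 to 107 CPM in WT replicates 1 to 4 and 8.12 CPM in WT replicate 5. Among 16 signalling genes downstream of the receptors, 8 were higher and 8 lower in both fits. Vav1, a guanine nucleotide exchange factor of blood cells, had the smallest p, with a log2 fold change of 0.75 ± 0.25 (SE) with all 10 libraries (edgeR adjusted p = 0.669) and 0.70 ± 0.24 (SE) without WT replicate 5 (adjusted p = 0.345). Among 14 genes that trim chemokines or present them on heparan sulphate, 8 were higher and 6 lower with all 10 libraries and 10 higher and 4 lower without WT replicate 5. Sdc1, a heparan sulphate proteoglycan of epithelium, had the smallest p there, with a log2 fold change of -0.52 ± 0.21 (SE) (edgeR adjusted p = 0.407).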

How the data were processed

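RNA-seq was made from 10 mouse mammary tumour libraries, 5 KO and 5 WT, grouped by the genotype label and numbered in accession order. The authors deposited whole-number counts of reads per Ensembl gene, 1 column per library, with 0 count columns left without a sample. Per the submitters' processing notes the tools were FastQC, STAR, featureCounts and DESeq2 and the build was GRCm39, while their versions, the annotation release, the strand setting and the treatment of multi-mapping reads are unstated there and not given in the labels. Totals of 25.7 to 43.3 M counts per library make a count of 0 worth at most 0.0643 to 0.198 CPM, for counting error only.

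Gene types and exon lengths came from GENCODE M21 by gene ID, and symbols from a list of gene names by gene ID (52029 of 57010 had one). Genes without a symbol or without a type in GENCODE M21 could not enter the families. The families, the gene lists and the tests were chosen with earlier results of these data known. KO and WT counts were compared with edgeR 4.0.16 (R 4.3.3) by the quasi-likelihood test with robust estimation, TMM scaling and filterByExpr, fitted over all genes with Benjamini-Hochberg adjustment at 0.05. The standard error is the log2 fold change divided by the square root of F. The fit was made with all 10 libraries and repeated on 9 without WT replicate 5, and the procedure was tested on simulated data. Levels are TMM-scaled CPM on the 10-library scale, and within-group spread is on log2(CPM + 0.5). Named with values were the 6 genes of smallest unadjusted p in each direction of each fit with a mean of at least 1 CPM, the 10 with the highest mean, the receptors above 1 CPM, known ligand and receptor pairs, and of each list up to 4 genes of smallest p. The other settings tried were limma-voom with quality weights (limma 3.58.1), DESeq2 1.42.0, RLE scaling, no low-count filter, 10 counts in every library, counts summed per leading number of the library name, that number as a random block, and each library left out in turn. Promoter windows are RefSeq's. Results for 2 genes are not reported here.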

Additional observations from a re-analysis of the deposited data

Results flagged for a closer look

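In each group of 5 libraries, the gap between the highest or lowest library and its nearest neighbour was set against the range of the group for the 28 genes with a mean of at least 1 CPM. Of the 56 groups of values, 15 had a library that stood apart by Dixon's criterion. Its nominal rate of about 1 in 20 holds for independent, normally distributed values. These are unlogged CPM of genes measured in the same libraries, so the share cannot be set against that rate. Cxcl13 and Ccl24, which supplied 4 of the 15, also reached 1 CPM only through WT replicate 5.

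KO replicate 4 stood apart in 3, as the highest KO library for Cxcl10 (15.4 CPM), Cxcl13 (5.14 CPM) and Ccl20 (4.78 CPM). KO replicate 2 stood apart in 1, as the highest KO library for Ccl24 (1.42 CPM). WT replicate 5 stood apart in 8. It was the highest WT library for Ccl6 (364 CPM), Cxcl12 (272 CPM), Ccl9 (172 CPM), Ccl8 (66.4 CPM), Ccl21a (20.7 CPM), Cxcl13 (12.9 CPM) and Ccl24 (10.5 CPM), and the lowest for Cxcr4 (16.9 CPM). WT replicate 1 stood apart in 3, as the highest WT library for Cxcl10 (27.9 CPM), Ccl20 (15.1 CPM) and Ccl5 (7.83 CPM). Cxcl10, Ccl20, Cxcl13 and Ccl24 were thus marked by a library of each genotype.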

How the results depend on the processing

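Among the 51 genes, edgeR called 0 in both fits and under every alternative in edgeR, and the random block called 0 as well. Without WT replicate 5, DESeq2 called 1 and limma-voom with quality weights called 1, in both cases Ccl21a, with log2 fold changes of 3.84 and 4.43. The count of genes with a mean of at least 1 CPM was 26 to 28 under all scalings and with any library left out. The log2 fold changes of 16 named genes gave 519 alternative values, of which 491 kept their direction and their side of the threshold, 2 passed it and 26 turned in sign, 13 in each fit. The cause of these turns was not tested. With all 10 libraries, limma-voom with quality weights gave -0.13 for Ccr1 and 4.43 for Ccl21a, the random block gave 0.020 for Ccl8, 0.017 for Cxcl10 and 3.27 for Ccl21a, and summed counts gave 0.18 for Cxcr4. Without WT replicate 5, limma-voom with quality weights gave -1.21 for Ccl6, -0.050 for Cxcl12, -0.36 for Ccl8 and -0.13 for Ccr1, and the random block gave -0.11 for Ccl6. With 1 library left out of all 10, the values ran from -2.35 to 0.26 for Ccl6, -1.46 to 0.55 for Cxcl12, -1.49 to 0.26 for Ccl8 and -0.83 to 3.83 for Ccl21a, each turned by WT replicate 5. They ran from -0.49 to 0.0088 for Cxcr4, turned by KO replicate 3, from -1.83 to 2.09 for Cxcl10, turned by WT replicate 1, and from -0.60 to 0.073 for Ccl7, turned by WT replicate 4. With a further library left out of the 9, they ran from -0.37 to 0.90 for Ccl6, turned by KO replicate 4 and WT replicates 1 and 2, and from -0.18 to 1.09 for Ccl8, turned by KO replicate 2 and WT replicates 1 and 2. They ran from -2.11 to 1.77 for Cxcl10, turned by WT replicate 1, and from -0.61 to 0.34 for Ccl7, turned by WT replicate 4. DESeq2 gave no p for Ccl21a with all 10 libraries, and low genes dropped out where 10 counts were required in every library. No paired analysis was possible because the replicate numbers were given in accession order and pair no KO library with a WT library.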

Other observations

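Cxcl11, an interferon-induced ligand of Cxcr3 like Cxcl9 and Cxcl10, is annotated as a polymorphic pseudogene and so fell outside the protein-coding rule. It stood at 0.266, 0.186, 0.979, 4.99 and 0.108 CPM in KO replicates 1 to 5, against 3.64, 0.364, 0.214, 0.166 and 0.990 CPM in WT replicates 1 to 5. The counts were 10, 6, 27, 166 and 4 in KO and 121, 15, 10, 6 and 15 in WT libraries. Its highest libraries were KO replicate 4 and WT replicate 1, which were also the highest of their groups for Cxcl10 and Ccl20.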
